A study of Mus musculus with 6 samples.

Results

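The guanylate-binding protein (GBP) genes Gbp2, Gbp3, Gbp4, Gbp5, Gbp6, Gbp7, Gbp8 and Gbp9 were taken by symbol from a table of 34745 mouse genes measured in alveolar macrophages, the macrophages of the lung air spaces. All 8 were found and all 8 passed the filter on low counts. RNA sequencing was run on 3 Phlpp1-deficient libraries (called KO in the plots) and 3 wild-type (WT) libraries from lavage fluid. Every mouse had received bleomycin, a lung-injuring drug used to model fibrosis, at 5 mg per kg, and cells were taken on day 7, so bleomycin was common to both groups. The labels describe neither the deficient allele nor the strain, sex or age, nor whether a library is 1 animal or a pool; p-values therefore measure the spread between libraries, which may be technical.

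GBPs are large dynamin-like GTPases that are among the proteins made most abundantly after interferon, above all interferon gamma. They assemble on the membranes of vacuoles that hold microbes and on bacteria, where they help to break the vacuole and feed inflammasomes, the complexes that activate caspases and interleukin 1. Macrophages are a main site of their action, and their promoters are known to carry interferon response elements, bound among others by the interferon regulatory factors.

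In GENCODE M21 (assembly GRCm38, the build called mm10) the members form 2 clusters. On chromosome 3, plus strand, lie Gbp5 (142493978 to 142522344), Gbp7 (142530342 to 142550149), Gbp3 (142560026 to 142573209) and Gbp2 (142620602 to 142638008). On chromosome 5, minus strand, lie Gbp8 (105014150 to 105139540), Gbp9 (105077630 to 105139539), Gbp4 (105115767 to 105139586) and Gbp6 (105270702 to 105293698). The annotated spans of Gbp8, Gbp9 and Gbp4 overlap on the same strand, and they share 60 to 61 exon bases. Transcripts of the chromosome 5 members resemble each other closely. Gbp6 matches Gbp10, a neighbour outside the 8, at 99.2% identity over 3131 bases, and matches Gm43302, which overlaps both, at 99.8% over 3923 bases. Gbp4, Gbp8 and Gbp9 each match another chromosome 5 GBP at 95% or more over 278 to 702 bases. Counts of these 4 genes are therefore uncertain where reads could be split. On chromosome 3, Gbp2 is 83.4% identical to its neighbour Gbp2b over 1730 bases, and none of the 4 members there had a match of 95% or more to another GBP gene over at least 150 bases. Gbp7 overlaps Gm43802 on the same strand, and Gbp5 has a match of 179 bases to Gm29055.

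Promoter sequence was taken from RefSeq (GRCm38.p6), whose starts are not the M21 starts given above. The Gbp5 stretch shown lies inside the M21 span of Gbp5, and those of Gbp2 and Gbp3 run into the spans of these genes. Such sequence was at hand for Gbp2, Gbp3, Gbp5 and Gbp7. The 250 bases before the annotated start are shown because these are the members with a promoter in the table, all from chromosome 3; capitals mark matches to the core interferon-stimulated response element (2 copies of GAAA with any 2 bases between them on either strand, here read as copies of TTTC) and to the gamma-activated site (TTCNNNGAA).
Gbp2, chr3:142620413-142620662, plus strand: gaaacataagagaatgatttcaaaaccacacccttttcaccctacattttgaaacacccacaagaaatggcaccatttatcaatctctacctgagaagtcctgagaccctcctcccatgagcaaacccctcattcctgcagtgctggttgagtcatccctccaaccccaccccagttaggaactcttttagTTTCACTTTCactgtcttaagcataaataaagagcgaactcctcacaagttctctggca
Gbp3, chr3:142559794-142560043, plus strand: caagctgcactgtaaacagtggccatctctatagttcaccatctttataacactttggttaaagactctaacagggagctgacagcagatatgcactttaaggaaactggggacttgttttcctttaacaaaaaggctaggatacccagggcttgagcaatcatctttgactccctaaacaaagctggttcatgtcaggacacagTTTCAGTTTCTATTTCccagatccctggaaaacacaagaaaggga
Gbp5, chr3:142496684-142496933, plus strand: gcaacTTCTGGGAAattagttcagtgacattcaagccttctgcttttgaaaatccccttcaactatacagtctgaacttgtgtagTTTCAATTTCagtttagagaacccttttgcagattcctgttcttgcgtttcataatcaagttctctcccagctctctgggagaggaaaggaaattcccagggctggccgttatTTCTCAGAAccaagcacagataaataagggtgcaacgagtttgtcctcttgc
Gbp7, chr3:142530086-142530335, plus strand: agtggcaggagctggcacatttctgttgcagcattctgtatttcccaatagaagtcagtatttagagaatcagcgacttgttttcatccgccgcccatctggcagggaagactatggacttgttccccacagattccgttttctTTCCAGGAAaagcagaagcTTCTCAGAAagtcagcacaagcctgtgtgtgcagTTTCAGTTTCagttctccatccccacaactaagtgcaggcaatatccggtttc
The whole windows of the table, which run on past the start, were searched on both strands. All 4 genes held the response element core, which 3.44% of the 32851 windows in the table hold. In Gbp2 it lay 59 to 50 bases before the start. Gbp3 has 2 overlapping matches, seen as 1 run of capitals, and a further Gbp3 window at a second start held none. The neighbour Gbp2b, whose level was lowest in WT library 2, held the core too, 137 to 128 bases before its start. In Gbp5 the core lay 165 to 156 bases and in Gbp7 53 to 44 bases before the start. The gamma-activated site occurred in Gbp5 and in Gbp7 with 2 matches each, against 8.30% of all windows, and had no match in the windows of Gbp2 and Gbp3. Of the comparison lists below, 7 of 9 immunity-related GTPases and 11 of 17 type I interferon-stimulated genes with a window held the core. So did 2 of 15 interferon gamma targets, 2 of 6 STAT and IRF genes, 1 of 6 brakes and 3 of 13 autophagy genes and other GBP partners. It was in 0 of 7 ligand, 0 of 8 receptor and Janus kinase, 0 of 11 inflammasome and cell death and 0 of 3 atlastin genes. A match of letters does not show that a factor binds there.

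Levels between the genes were compared as FPKM, which divides counts by gene length. Gbp2 was the highest, with a median of 73.8 FPKM over the 6 libraries (range 46.3 to 302), and Gbp7 came next at 34.6 (27.0 to 85.3). This order held in 6 of 6 libraries, as did that of Gbp7 above Gbp3. Gbp3 and Gbp9 had close levels, with medians of 14.8 (10.7 to 38.3) and 14.1 FPKM (8.96 to 25.5), and Gbp3 was higher in 4 of 6 libraries. Gbp4 had a median of 12.1 FPKM (8.73 to 14.2) and Gbp5 of 10.7 (7.05 to 39.7), with Gbp4 higher in 4 of 6 libraries. Gbp8 and Gbp6 were the lowest, at 6.49 (5.06 to 7.90) and 5.52 FPKM (4.34 to 8.10). The neighbours Gbp10, Gbp2b and Gbp11, which are no members, stood at medians of 1.16, 1.15 and 0.80 FPKM.

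For each of the 8 members the gene length behind the deposited FPKM was longer than the exon length in M21. For Gbp5 the implied length was 9993 bases against 6637 exon bases in M21, and for Gbp3 it was 6064 against 3265. With M21 lengths and the same counts the order was unchanged except that Gbp5, at a median of 16.1, came above Gbp4 at 14.3.

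**Figure D1:**
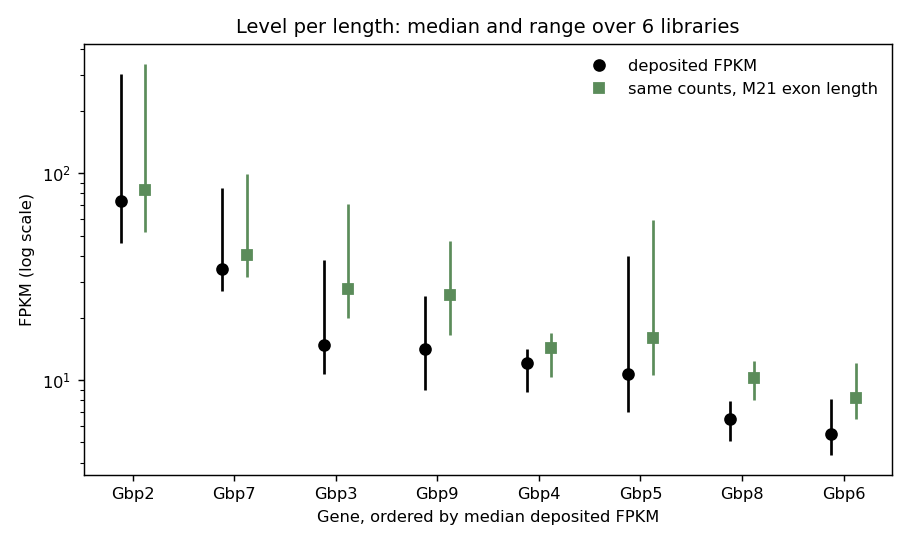
Level per gene length of the 8 GBP genes. The y axis is FPKM on a log scale, points are medians and lines the full range over 6 libraries; black is the deposited FPKM and green the same counts divided by M21 exon length. Gbp2 leads in both, and Gbp4 and Gbp5 change places.

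Between the genotypes, 0 of the 8 members passed edgeR's quasi-likelihood test at an adjusted p under 0.05, where 0.0997% of the 14037 tested genes passed. At an unadjusted p under 0.05 the edgeR count was also 0 of 8, against 6.96% of all tested genes. At an adjusted p under 0.05 limma called 0 of 8 too, where its fits called 22 to 27 of all tested genes. At the same threshold DESeq2 called 0 of 8, where it called 1.42% of all genes. The unadjusted DESeq2 p was 0.0366 for Gbp2, 0.0401 for Gbp5 and above 0.05 for the other members. The median log2 difference of the members, Phlpp1-deficient minus WT, was -0.51, beside -0.02 over all tested genes, and 6 of 8 members were below 0, as were 54.3% of all genes. In none of the 8 did the 3 Phlpp1-deficient libraries separate from the 3 WT libraries, while the groups did not overlap in 11.1% of all tested genes. Without WT library 2 the median was -0.04 and edgeR again called 0 of 8, against 0.0833% of all tested genes. The median was -0.84 without WT library 1. The targeted gene, Phlpp1, had 30.3, 25.3 and 28.5 CPM in WT libraries 1, 2 and 3 and 23.2, 21.6 and 17.7 CPM in the Phlpp1-deficient ones. Its log2 difference of -0.43 did not pass (edgeR adjusted p = 0.62), and since the allele is not described these values check the labels only weakly.

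Gbp2, which coats vacuoles that hold Toxoplasma in mouse cells, had 125, 932 and 295 CPM (counts scaled to a common library total) in WT libraries 1, 2 and 3 and 247, 170 and 135 CPM in Phlpp1-deficient libraries 1, 2 and 3. The WT libraries held both the lowest and the highest value of the 6. Means were 451 ± 425 CPM over the WT and 184 ± 57.1 over the Phlpp1-deficient libraries (SD, n = 3 each). The log2 difference of -1.29 (SE 0.68) did not pass (edgeR adjusted p = 0.84). It was -0.17 (SE 0.41) without WT library 2, the highest, and -1.74 (SE 0.50, edgeR adjusted p = 0.507) without WT library 1, the lowest.

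Gbp5, which promotes assembly of the NLRP3 inflammasome, followed Gbp2 closely. Its values were 70.0, 433 and 151 CPM in the WT libraries and 135, 77.7 and 69.3 in the Phlpp1-deficient ones 1, 2 and 3. WT library 2 again stood 2.86-fold above the next library, and WT library 1 lay among the lowest. The log2 difference was -1.22 (SE 0.64, edgeR adjusted p = 0.839). It was -0.22 without WT library 2 and -1.64 (SE 0.48, edgeR adjusted p = 0.511) without WT library 1.

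Gbp7, linked in mouse macrophages to oxidative killing of bacteria, had 168, 609 and 264 CPM in the WT libraries and 237, 196 and 205 in the Phlpp1-deficient ones. Apart from WT library 2 its libraries lay within 1.57-fold of each other. The difference was -0.71 on the log2 scale (SE 0.44, edgeR adjusted p = 0.912). It was -0.01 without WT library 2 and -1.04 (SE 0.35, edgeR adjusted p = 0.577) without WT library 1. Gbp3, the remaining chromosome 3 member, had 71.3, 253 and 121 CPM in the WT libraries and 93.4, 67.0 and 82.5 in the Phlpp1-deficient ones. It had the smallest p of the 8, unadjusted 0.0817 (edgeR adjusted p = 0.808), with a log2 difference of -0.87 (SE 0.43). Without WT library 2 this was -0.23, and without WT library 1 it was -1.21 (SE 0.33, edgeR adjusted p = 0.479).

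Gbp9 was the chromosome 5 member that varied most. It had 81.3, 265 and 144 CPM in the WT libraries and 164, 111 and 120 in the Phlpp1-deficient ones. WT library 1 was the lowest and WT library 2 the highest, and every Phlpp1-deficient library lay between them. The difference on the log2 scale was -0.31 (SE 0.41; edgeR adjusted p = 1) and turned to 0.24 (SE 0.30) without WT library 2.

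The other chromosome 5 members were steadier. Gbp4, described in mouse cells as a brake on IRF7, had 87.2, 131 and 117 CPM in the WT libraries and 123, 80.2 and 94.1 in the Phlpp1-deficient ones. WT library 2 was the highest here too, but only 1.06-fold above Phlpp1-deficient library 1. Gbp6 had 40.8, 42.0 and 70.5 CPM in the WT libraries and 58.8, 50.3 and 48.5 in the Phlpp1-deficient ones, with WT library 3 the highest. Gbp8 had 40.9, 30.0 and 29.2 CPM in the WT libraries and 36.7, 35.9 and 35.0 in the Phlpp1-deficient ones, and its values in WT libraries 2 and 3 were the lowest of all. The log2 differences were -0.17 (SE 0.22) for Gbp4, 0.04 (SE 0.23) for Gbp6 and 0.10 (SE 0.17) for Gbp8, each with an edgeR adjusted p of 1. Summed with Gbp10 and Gm43302, with which it shares sequence, Gbp6 had a difference of -0.07 (SE 0.22). The neighbours Gbp2b, Gbp10 and Gbp11 had log2 differences of 0.61, -0.74 and 0.18 (edgeR adjusted p = 0.84, 0.842 and 1).

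**Figure D2:**
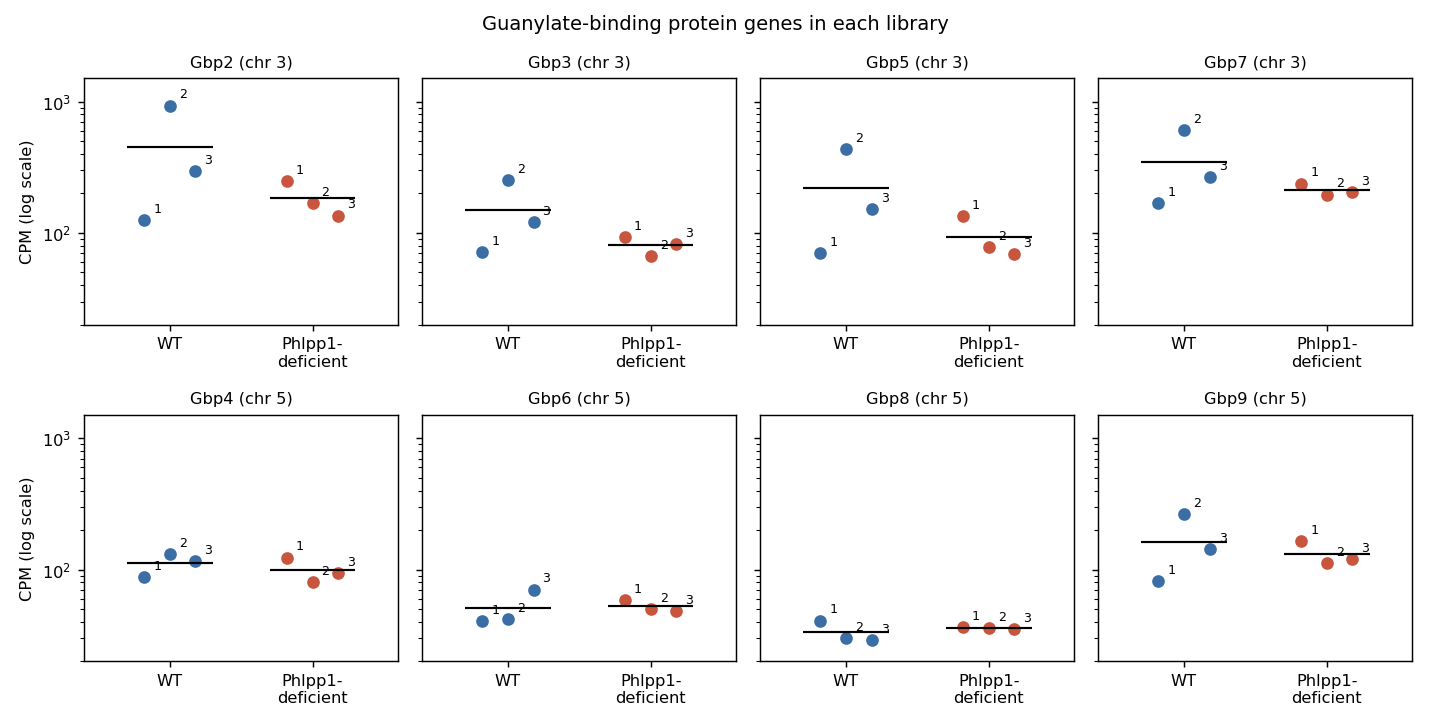
CPM of each GBP gene (log scale) in the 3 WT libraries (blue) and the 3 Phlpp1-deficient libraries (red); digits are library numbers and black bars group means. In Gbp2, Gbp3, Gbp5, Gbp7 and Gbp9 WT library 2 stands above the other 5 libraries, while Gbp4, Gbp6 and Gbp8 stay within 1.73-fold among those 5 and show no such gap.

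**Figure D3:**
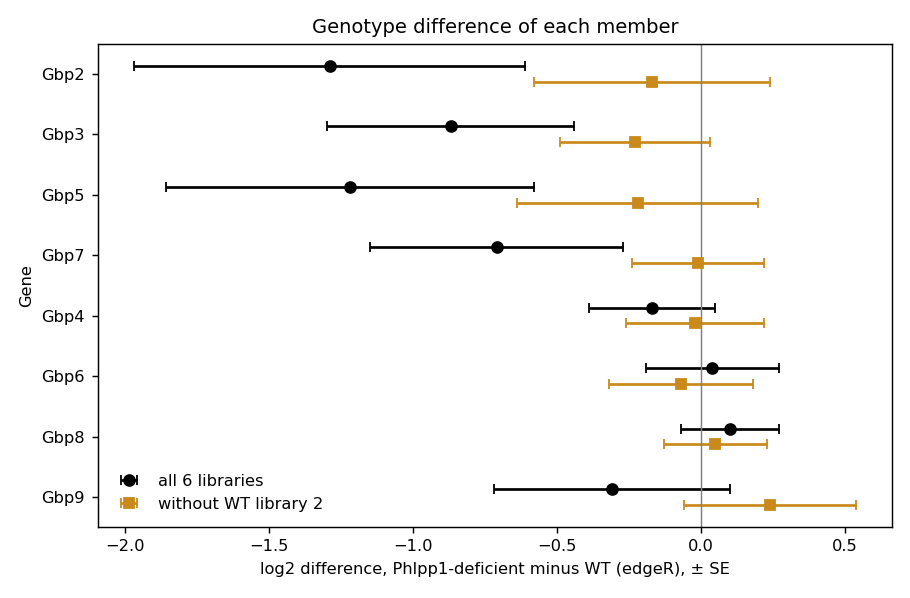
Log2 difference of each GBP gene, Phlpp1-deficient minus WT, with its SE from edgeR, over all 6 libraries (black circles) and without WT library 2 (ochre squares). Gbp2 moves from -1.29 to -0.17 and Gbp9 from -0.31 to 0.24.

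Across the libraries the members thus split unevenly. WT library 2 held the highest value in 6 of 8 members, where it was the highest library for 24.1% of all tested genes. Relative to the mean of the other 5 libraries, its CPM was 4.80-fold in Gbp2, 4.31-fold in Gbp5, 2.91-fold in Gbp3, 2.84-fold in Gbp7 and 2.14-fold in Gbp9. In Gbp4, Gbp6 and Gbp8 it was 1.303-fold, 0.78-fold and 0.84-fold. The chromosome 3 members summed to 434, 2227 and 832 CPM in the WT libraries and 712, 510 and 493 in the Phlpp1-deficient ones. For the chromosome 5 members the sums were 250.2, 468 and 359.8 CPM and 383, 278 and 297 CPM. The ratio of summed FPKM, chromosome 3 over chromosome 5, was 2.91, 9.61 and 4.33 in WT and 3.43, 3.29 and 2.85 in Phlpp1-deficient libraries. Gbp2 alone made up 58.8% of the members' FPKM in WT library 2 and 35.5% to 47.1% in the others.

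**Figure D4:**
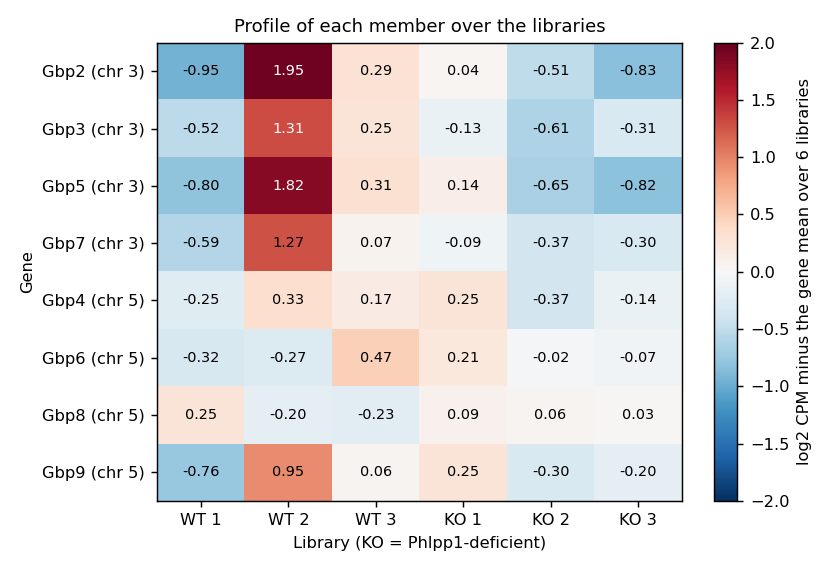
Log2 CPM of each GBP gene in each library minus that gene's mean over the 6 libraries; red is above the mean and blue below. In WT library 2 the 4 chromosome 3 genes are 1.27 to 1.95 above their means, and Gbp6 and Gbp8 are 0.27 and 0.20 below theirs.

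Genes around the family in the interferon pathway were counted in lists. Among ligands, Ifng, which codes for interferon gamma, was low, with 3.07, 2.53 and 1.84 CPM in the WT libraries and 5.38, 4.77 and 3.68 in the Phlpp1-deficient ones. All 3 Phlpp1-deficient values lay above all 3 WT values, while the log2 difference of 0.89 (SE 0.30) did not pass (edgeR adjusted p = 0.558). Ifng had only 28 to 75 counts per library, with 31 in WT library 2, where Gbp2 was highest. Whether interferon gamma set the GBP levels was not tested. Of the 6 ligand genes tested, 0 passed and the median log2 difference was -0.06, or 0.24 without WT library 2. Il12a, a subunit of the interferon gamma inducer interleukin 12, had only 4 to 42 counts per library. It was at 0.68 ± 0.55 CPM over the WT and 2.13 ± 1.01 over the Phlpp1-deficient libraries, with overlap (mean ± SD over 3 libraries, edgeR adjusted p = 0.656). The other subunit, Il12b, went the other way, at 12.4 ± 6.39 and 7.50 ± 3.44 CPM (edgeR adjusted p = 0.916).

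Of 9 receptor and Janus kinase genes 0 passed (median log2 difference -0.23), with 7 below 0; without WT library 2 the median was 0.01, with 5 of 9 above 0. Ifnar1 and Ifnar2, the subunits of the type I interferon receptor, and Il10rb, shared by the interleukin 10 and interferon lambda receptors, lie side by side on chromosome 16 between 91372783 and 91507441. Il10rb had 135, 92.4 and 150.3 CPM in the WT libraries and 61.8, 62.7 and 47.1 in the Phlpp1-deficient ones, without overlap (log2 difference -1.14, SE 0.22; edgeR adjusted p = 0.23). Ifnar2 had 108 ± 15.1 and 75.6 ± 4.13 CPM and Ifnar1 186 ± 26.6 and 137 ± 17.5 CPM (mean ± SD over 3 libraries; by edgeR, adjusted p = 0.481 and 0.67), also without overlap. Ifngr2, a chain of the interferon gamma receptor, lies further along chromosome 16, from 91547072. Its groups overlapped, at 183 ± 44.2 and 156 ± 9.52 CPM (edgeR adjusted p = 0.985). Ifngr1, the ligand-binding chain of that receptor, was higher in the Phlpp1-deficient libraries without overlap. It had 351 ± 38.9 CPM over the WT and 415 ± 19.1 over the Phlpp1-deficient libraries (mean ± SD over 3 libraries, edgeR adjusted p = 0.922). Groups did not overlap in 4 of the 9 genes, against 11.1% of all tested genes.

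Of 10 STAT and IRF genes 0 passed, 8 were below 0 and the median was -0.27, or -0.04 without WT library 2. Stat2, a part of the complex that type I interferon activates, had 194, 679.7 and 301 CPM in the WT libraries and 220.1, 194 and 175 in the Phlpp1-deficient ones (edgeR adjusted p = 0.738). Like Gbp2, it was highest in WT library 2. Among 8 brakes of the pathway 0 passed; their median was -0.13, or 0.07 without WT library 2. Socs1, the inhibitor that interferon gamma itself induces, had 25.5, 38.4 and 25.3 CPM in the WT libraries and 16.9, 12.1 and 6.93 in the Phlpp1-deficient ones, without overlap (log2 difference -1.31, SE 0.34; edgeR adjusted p = 0.433). Socs3, an inhibitor induced by interleukin 6 family cytokines, had 457 ± 167 and 1174 ± 733 CPM (mean ± SD over 3 libraries; by edgeR, adjusted p = 0.726).

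Among other interferon targets, the immunity-related GTPases, which act beside GBPs at vacuoles, had 10 of 13 tested genes below 0 and a median of -0.68, or -0.20 without WT library 2. Irgm2 had 88.4, 326 and 149 CPM in the WT libraries and 74.8, 64.2 and 98.9 in the Phlpp1-deficient ones (log2 difference -1.24, SE 0.46; edgeR adjusted p = 0.619). In this list 1 of 13 genes passed, against 0.0997% of all tested genes. The list was chosen with earlier results of these data known. The gene that passed, 9930111J21Rik2, rose from 1.17 ± 0.18 to 122 ± 24.9 CPM and held with WT library 2 left out (mean ± SD over 3 libraries, edgeR adjusted p = 0.000286). Type I interferon-stimulated genes had 24 of 24 tested genes below 0, a median of -0.73 and 0 calls; without WT library 2 the median was 0.02, with 12 of 24 above 0. WT library 2 was the highest library for 22 of the 24, against 24.1% of all tested genes. Ifit2, an inhibitor of viral translation, had 111, 1154 and 338 CPM in the WT libraries and 186, 133 and 117 in the Phlpp1-deficient ones (log2 difference -1.88, SE 0.76; edgeR adjusted p = 0.687). Bst2, which tethers virus to the cell, had a smaller difference without overlap, 160.2 ± 18.6 against 112 ± 10.3 CPM (mean ± SD over 3 libraries; by edgeR, adjusted p = 0.498).

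Of 22 tested interferon gamma targets outside the GTPases 0 passed, with a median of -0.30 and 16 below 0; the median was -0.15 when WT library 2 was left out. The immunoproteasome subunits Psmb8, Psmb9 and Psmb10 had log2 differences of -0.38, -0.47 and -0.38 (edgeR adjusted p = 0.811, 0.638 and 0.68). Inflammasome and cell death genes, the machinery GBPs feed, had a median of -0.21 over 13 genes and 0 calls; without WT library 2 the median was 0.32, with 8 of 13 above 0. Il1b, the precursor of interleukin 1 beta, had 189, 833 and 287 CPM in the WT libraries and 2783, 3173 and 279.5 in the Phlpp1-deficient ones (log2 difference 2.25, SE 0.93; edgeR adjusted p = 0.696). Its highest library was Phlpp1-deficient library 2, whereas Gbp2 and Gbp5 were highest in WT library 2. Among the WT libraries Il1b, too, was highest in library 2. Casp1, the inflammasome protease, had 65.3 ± 5.83 and 54.8 ± 2.95 CPM (mean ± SD over 3 libraries; by edgeR, adjusted p = 0.817). Autophagy genes and other GBP partners had a median of 0.04 over 15 genes, and the atlastins, the nearest relatives of GBPs among membrane GTPases, 0.07 over 3, with 0 calls in both lists. Without WT library 2 these medians were 0.06 and -0.01.

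The genes whose profile over the 6 libraries was most like the mean profile of the members were found by the root mean square gap of centred log2 CPM among 10819 other genes. The 10 closest were Mov10, Zup1, Sp100, Nmi, Cep85l, Ifi213, Samhd1, Mx2, Nod2 and Gdap10, with gaps of 0.077 to 0.128. Mov10, an RNA helicase that restricts retroviruses, had 48.9, 124 and 79.8 CPM in the WT libraries and 65.3, 49.2 and 50.1 in the Phlpp1-deficient ones. Samhd1, which depletes nucleotides that viruses need, had 607, 1632 and 832 CPM and 784, 727 and 650.1 CPM. Both were highest in WT library 2. This follows from how they were picked, since the members' mean profile peaks there, and is no separate finding. Among the members themselves the gap to the mean profile was smallest for Gbp9 (0.146) and Gbp7 (0.181) and largest for Gbp8 (0.605).

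The libraries carried markers of alveolar macrophages and of other cells. All 18 resident alveolar macrophage markers were tested, with summed levels of 5964 to 7649 CPM in WT and 5681 to 11039 CPM in Phlpp1-deficient libraries. In WT library 2 the sum was 7649 CPM, of which Chil3 alone had 5044 CPM. By mean log2 CPM over its genes this list was lowest in WT library 2, at 6.16, against 6.24 to 7.36 in the others. Neutrophil markers summed to 1208, 10912 and 2279 CPM in the WT libraries and 5348, 7802 and 1407 in the Phlpp1-deficient ones. Erythroid markers summed to 461, 8433 and 498 CPM and to 368, 5179 and 1069.5 CPM. Both lists were highest in WT library 2 and high in Phlpp1-deficient library 2, and neutrophil markers also in Phlpp1-deficient library 1. Gbp2 had 125, 932 and 295 CPM in WT libraries 1, 2 and 3 and 247, 170 and 135 CPM in Phlpp1-deficient libraries 1, 2 and 3. NK cell markers, of cells that make interferon gamma, summed to 386, 455 and 517 CPM in the WT libraries and 386, 224 and 331 in the Phlpp1-deficient ones, and T cell markers to 1542 to 1945 and 1680 to 2538 CPM. Between the genotypes, 14 of 14 NK cell, 15 of 16 monocyte and recruited macrophage and 7 of 8 erythroid markers were below 0. Above 0 were 12 of 12 B cell, 11 of 11 lung epithelial, 16 of 18 resident alveolar macrophage and 14 of 16 T cell markers. Neutrophil markers had 8 of 15, dendritic cell markers 4 of 10 and endothelial markers 3 of 4 above 0. Each list had 0 calls by edgeR. Without WT library 2 the erythroid markers turned to 8 of 8 above 0, with the median log2 difference going from -0.46 to 2.21. Neutrophil markers then had 14 of 15 above 0, with the median going from 0.20 to 2.02. The median of every other marker list kept its sign. Over all tested genes 54.3% were below 0 and 0.0997% were called. No listed marker was at 0 in every library, and the part of other cells in the GBP values was not tested. In such bulk libraries fewer cells of a type and less RNA per cell cannot be told apart.

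**Figure D5:**
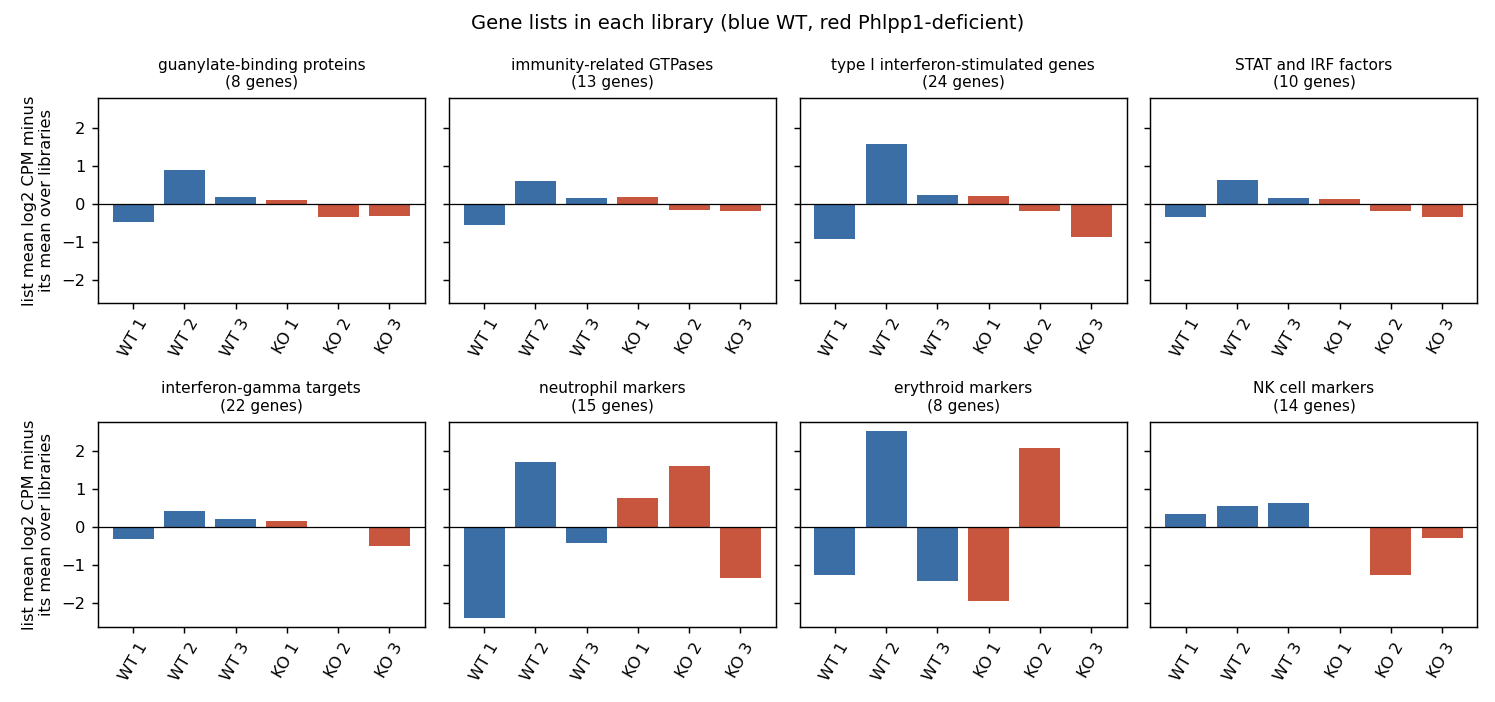
Mean log2 CPM of 8 gene lists in each library, minus the list's mean over the 6 libraries (blue WT, red Phlpp1-deficient). GBPs, immunity-related GTPases, type I interferon-stimulated genes, STAT and IRF genes and interferon gamma targets peak in WT library 2. These lists are lowest or near lowest in WT library 1. Neutrophil and erythroid markers are high in library 2 of both genotypes, and neutrophil markers also in Phlpp1-deficient library 1.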

How the data were processed

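Messenger RNA libraries of lavage macrophages were analysed from a table that holds, per the file headers, whole read counts and also FPKM values of every gene, both as deposited by the authors. The deposited counts are whole numbers summing to 13340861 to 15843764 per library, and the members had 368 to 11442 counts per library. The deposited FPKM equal counts divided by the library total and a length per gene. HISAT2, StringTie 1.3.0, edgeR and mm10 appear, without roles, per the submitters' processing notes; the annotation and strand setting are not given in the sources used here. Of the gene IDs, 34344 matched GENCODE M21 and 401 did not.

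Groups follow the genotype label. The test was edgeR 4.0.16 in R 4.3.3 (filterByExpr, TMM, glmQLFit with robust=TRUE, glmQLFTest) on the whole table, with Benjamini-Hochberg adjustment over 14037 genes and a threshold of 0.05; it was checked on simulated counts. CPM are counts over the TMM-scaled library total, and SE is the log2 difference over the root of F. An exact two-sided permutation test of 3 against 3 cannot go below 0.1, and no member reached that value. Every pair within a group differed by more than sampling noise (chi-square per gene at least 34.4). Transcripts were compared by blastn, counting matches of at least 95% identity over 150 bases. Named genes are all members, Gbp2b, Gbp10, Gbp11, Phlpp1, from each pathway list the called genes and up to 4 with the smallest p, and the 10 most like genes with at least 5 CPM; not all those taken are described. Members and lists were chosen with earlier results of these data known. Alternatives were other scalings and filters, DESeq2 1.42.0, limma 3.58.1 (voom, and log2(FPKM + 1) or log2(FPKM + 0.1)), the replicate number as a block, leaving out each library and summing near-identical genes. The Gm43302 sum and the lists without WT library 2 were added after the data were seen. Protein sequences were not used here, and 1 gene that the rule names is not reported here.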

Additional observations from a re-analysis of the deposited data

How the results depend on the processing

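None of the 8 members passed under any of the 15 alternative fits, whose lowest adjusted p for a member was 0.479 (edgeR without WT library 1). The members' median log2 difference stayed between -0.31 and -0.50 when all libraries were kept, and between -0.84 and -0.04 when 1 was left out, the last without WT library 2. Of 125 alternative values for single members, 118 kept their direction. Gbp9 ranged from -0.64 to 0.24 over the fits that left out a library, the latter lacking WT library 2. Gbp6 ranged from -0.10 to 0.38, and was below 0 when WT library 1 (-0.10), WT library 2 (-0.07) or Phlpp1-deficient library 1 (-0.05) was left out. It turned to -0.08 summed with Gbp4, Gbp8, Gbp10 and Gbp11, and to -0.07 summed with Gbp10 and Gm43302. Gbp8 summed with Gbp4, Gbp6, Gbp10 and Gbp11 was at -0.08. The cause of these turns was not tested.

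The count of called genes over the whole table was 14, and 36 without a filter on low counts, 199 with DESeq2, 23 with limma-voom, 22 and 27 with limma on log2(FPKM + 1) and log2(FPKM + 0.1), and 1 to 32 when a library was left out (1 lacking WT library 3, then 4, 7 and 32 lacking Phlpp1-deficient libraries 1, 2 and 3). A replicate block gave 1 call. The deviations of same-numbered libraries correlated at -0.125, 0.334 and 0.295, and WT library 1 correlated best with Phlpp1-deficient library 3, so the numbers were not taken to pair libraries; under the block 0 of 8 members passed and their median was -0.33. The immunity-related GTPase median moved from -0.68 to -0.20 without WT library 2. With 3 libraries a group, differences of the size seen in Gbp2 were within the spread between libraries.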

Other observations

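Values below were looked up after the data were seen. Of the 22 tested interferon gamma targets, 11 were highest in WT library 2, as Gbp2 was, against 24.1% of all tested genes. Psmb8, Psmb9 and Psmb10 were among them. Cxcl9, of the same list, was not, nor was Ciita, which was counted above with the STAT and IRF genes. Cxcl9, a chemokine for T cells, had 11.1, 5.70 and 12.1 CPM in WT libraries 1, 2 and 3 and 4.59, 6.09 and 11.1 CPM in Phlpp1-deficient libraries 1, 2 and 3. Ciita, the master regulator of MHC class II, had 105.9, 59.0 and 105 CPM in WT and 128, 57.3 and 101 CPM in Phlpp1-deficient libraries. Cxcl10, a chemokine induced by either interferon type, had 43.1, 691 and 209 CPM and 322, 171 and 19.8 CPM, with the peak in WT library 2. Ifit3, a type I target, ranged from 107 CPM in WT library 1 to 1859 CPM in WT library 2.

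Gvin1, a very large interferon-inducible GTPase on chromosome 7, had 22.0, 49.4 and 23.6 CPM in WT and 23.4, 20.3 and 0.074 CPM in Phlpp1-deficient libraries. The related Gm4070 had 12.9, 25.3 and 19.4 CPM and 12.3, 9.10 and 0.15 CPM. In both genes Phlpp1-deficient library 3, at 1 and 2 counts, stood far below the other 5 libraries, whereas Gbp2 there was at 135 CPM and the relatives Gm8995 and Gm1966 at 471 and 239 CPM.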
